A study of Danio rerio with 8 samples.

Results

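The zebrafish transcripts described here were much lower in iqgap1 mutant embryos than in wild type, with kbtbd7 close to absent and gbgt1l3 the least reduced: kbtbd7, entpd3, fam198a, eef1a1l2, the row named RAC1, and gbgt1l3. They are 6 of the 1293 genes in the authors' deposited table, and they were chosen by name for their low counts in the mutant pools and for the way some of them differ among the wild-type pools. The mutant against wild-type difference and the wild-type pattern are therefore given as descriptions, with no test. The study sequenced RNA of whole embryos at 53 hours post fertilisation, in 4 pools of wild-type embryos and 4 pools of iqgap1-/- embryos that had been picked for hemorrhage. The design text speaks of 20 embryos a pool and the extraction protocol in the labels of single larvae, and the labels say that both single-pair and group crosses were used to obtain embryos, without saying which cross gave which pool. Neither the allele nor the strain of the 2 groups is named in the labels, and the mutants were selected for a bleed while the wild-type pools were not. Nothing in the labels says that the pools of a group came from separate clutches, so the spread between them may be partly technical.

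The 6 genes work in different parts of the cell. Kbtbd7 belongs to the BTB-kelch family, adaptors that bring substrates to ubiquitin ligases built on cullin 3; in human cells KBTBD7 acts with KBTBD6 on TIAM1, an activator of RAC1. Rac1 is a small GTPase that controls actin at the cell edge and binds IQGAP1, the scaffold protein whose gene is mutated here. Entpd3 is a cell-surface enzyme that removes phosphates from extracellular ATP and ADP. The product of fam198a, now called gask1a, is a Golgi-associated protein related to secretory pathway kinases. Eef1a1 proteins carry aminoacyl-tRNA to the ribosome, and zebrafish have several genes for them. The gbgt1 genes resemble the mammalian gene for Forssman antigen synthase, a glycosyltransferase of the ABO blood group family.

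The deposited values rest on expected counts from RSEM, a program that divides a read among genes when it aligns to more than 1 of them. Summed over the table, a library held from 354272 to 552331 of them; genes outside the table were not analysed here, so full library depth is not known. Wild-type pools had 2157 ± 48.4 normalized counts of iqgap1 and mutant pools 1057 ± 153 (SD, n = 4 each), with every mutant pool the lower. Of 27 markers of embryonic cell types looked for, 13 were listed and above 0 in every pool. The summed level of the 4 erythrocyte markers hbbe1.1, hbae1.1, slc4a1a and alas2 ranged from 17530 to 28389 normalized counts among wild-type pools and from 63849 to 84022 among mutant pools. Markers of other cell types moved both ways by the edgeR quasi-likelihood test. The markers of macrophages fell (marco, log2 fold change -1.80, adjusted p = 0.00154, and mpeg1.1, -0.93, adjusted p = 0.047). So did the only listed marker of lens (cryaa, -0.74, adjusted p = 0.0262) and that of pigment cells (oca2, -0.59, adjusted p = 0.0207). The markers of neutrophils (mpx, 1.15, and lyz, 0.86) rose, as did cpa5 of exocrine pancreas (1.20). The liver gene fabp10a (1.23), though selected by the authors, did not pass here (adjusted p = 0.142), and the pancreas gene ela2l was removed by the count filter. The eye and pigment markers crygm2d1, gnat2, tyr and pmela were looked for but not listed. Listed genes are those the authors selected on this contrast, so markers that did not pass that selection are not seen. The part of these markers in the results below was not tested. In whole embryos, fewer cells of a type and less transcript per cell cannot be told apart. Mutant pool 1 stood apart from the other mutant pools: the chi-square per degree of freedom over listed genes was 17.9 to 20.3 against them, and 2.52 to 3.98 among the other 3. Between wild-type pools 1 and 2 it was 4.797, and between pools 3 and 4 it was 10.54. From either of pools 1 and 2 to either of pools 3 and 4 it was 8.821 to 12.81. Over the listed genes, wild-type pools 3 and 4 were thus about as unlike each other as they were unlike pools 1 and 2.

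In the mutants the 6 transcripts were left at 0.933% (kbtbd7), 3.61% (entpd3), 5.47% (fam198a), 7.64% (eef1a1l2), 9.09% (RAC1) and 17.2% (gbgt1l3) of their wild-type mean. Every mutant pool lay below every wild-type pool for all 6, an order that 38.1% of the 1293 listed genes showed. The fitted log2 fold change was -2 or lower for all 6, as it was for 7.9% of the 1126 genes that passed the filter on low counts, and all 6 members passed that filter. The edgeR quasi-likelihood test called all 6, beside 66.8% of the genes tested; because the members were chosen on this contrast, nothing is read from that count. Among the other listed genes 77 had a deposited log2 fold change as low as that of gbgt1l3, and of these 17 had a gene name rather than a clone name. With a wild-type mean of 50 or more there were 2, cyp2x7 and echdc1, and gsnb lay just outside with -2.54 in the authors' deposited table.

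**Figure D1:**
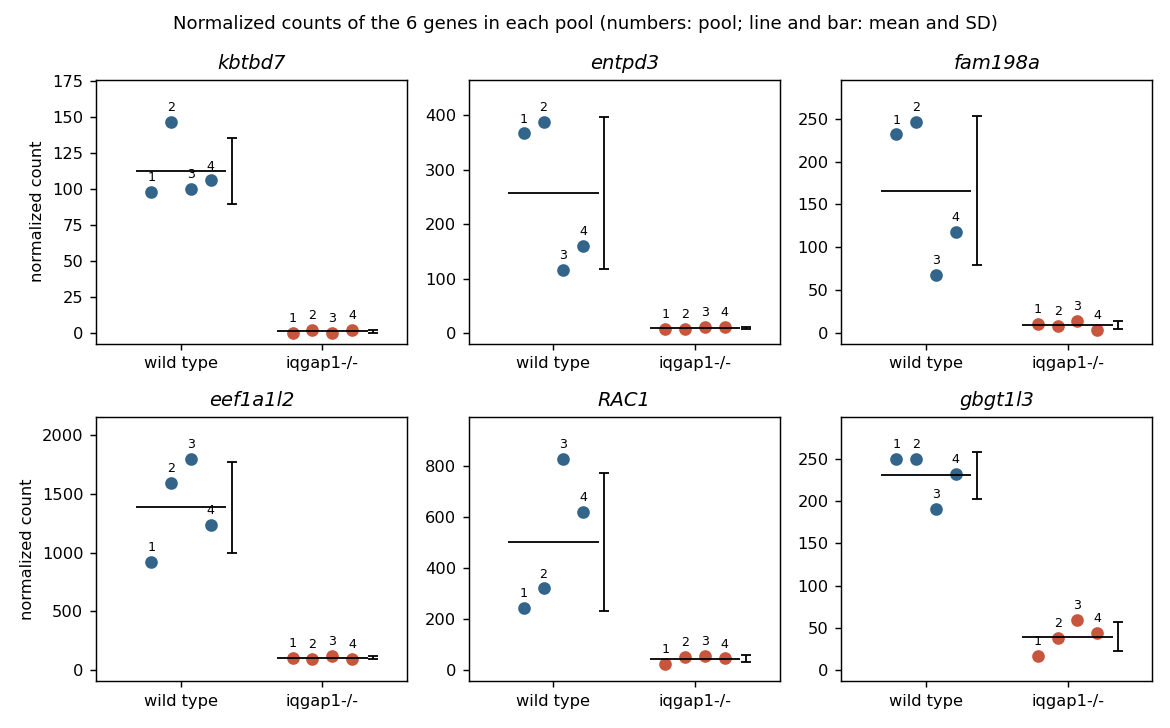
Normalized counts (vertical axis, linear, a separate scale for each gene) of the 6 genes in the 4 wild-type and 4 iqgap1-/- pools. Points are single pools with their number, the horizontal line is the mean and the bar beside it the SD. The mutant pools lie below the wild-type pools in every panel. Relative to the wild-type level of each panel, they are nearest to 0 for kbtbd7 and farthest from it for gbgt1l3. Wild-type pools 1 and 2 lie apart from 3 and 4 for entpd3, fam198a and RAC1.

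The transcript of kbtbd7, the ubiquitin ligase adaptor, had 105, 147, 118 and 115 expected counts in wild-type pools 1 to 4 and 0, 2, 0 and 2 in mutant pools 1 to 4. The groups were far apart, and the 4 wild-type pools were close to each other except for pool 2, which was the highest. After scaling between libraries, the mean was 113 ± 22.9 for wild-type pools and 1.05 ± 1.21 for mutant pools (normalized counts, SD, n = 4 each). The 4 mutant libraries held 4 counts together (exact 95% Poisson interval 1.09 to 10.2), against 485 in the wild-type libraries (443 to 530); such intervals cover counting error only. The limit that a count of 0 allows was 2.93 normalized counts in mutant pool 1 and 3.84 in pool 3. The lowest wild-type pool was 46.1 times the highest mutant pool. The fitted log2 fold change of -6.55 ± 0.43 (SE) rests on those 4 counts, and was -6.13 without mutant pool 1 and -7.06 without mutant pool 4. SE here and below is the absolute log2 fold change divided by the square root of the F statistic of the quasi-likelihood test. For kbtbd7, DESeq2 with the same size factors gave -6.71 with a larger SE of 0.76, so 0.43 may be too small. No listed gene could be placed within 10 protein-coding genes of kbtbd7 in the RefSeq annotation described below.

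The ectonucleotidase gene entpd3 had 367, 388, 116 and 160 normalized counts in wild-type pools 1 to 4. Its mutant pools had 7.81, 7.29, 11.5 and 10.6. The transcript was thus uneven in wild type, where the highest pool had 3.34 times the lowest. The highest mutant pool had 1.58 times the lowest. Mutant pools 1 to 4 held 8, 7, 9 and 10 expected counts, too few to compare their spread with that of wild type. The lowest wild-type pool was still 10.1 times the highest mutant pool, and the log2 fold change was -4.79 ± 0.47 (SE), or -4.71 without mutant pool 1.

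The Golgi protein gene fam198a had 232, 246, 67.9 and 118 normalized counts in wild-type pools 1 to 4. Its mutant pools had 10.7, 8.33, 14.1 and 3.18. Pools 1 and 2 were again the high wild-type pools and pool 3 the lowest, and no mutant pool reached the wild-type range. The log2 fold change was -4.19 ± 0.50 (SE), or -4.31 without mutant pool 1. In the authors' deposited table the values of entpd3 and fam198a are -4.78 and -4.18.

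These genes lie next to each other. In the order of protein-coding genes of the RefSeq annotation of GRCz12tu, gask1a and entpd3 are immediate neighbours, with pomgnt2 before gask1a and ddc after entpd3. The build behind the deposited files is danRer11, so the order is given without coordinates. Among the 10 protein-coding genes on each side of entpd3, fam198a was the sole gene of the deposited table that could be placed by name. Among the 10 on each side of fam198a, entpd3 was likewise the sole listed gene that could be placed. The pair does not lie on the chromosome of iqgap1, and neither do kbtbd7, eef1a1l2, gbgt1l3, gbgt1l6 or any of the rac1 genes. Of 872 listed genes placed in that order, 178 (20.4%) had another listed gene beside them. Of the 97 adjacent pairs, 68 had the same sign in the authors' deposited table, and 3 had log2 fold changes of -2 or lower for both genes: fam198a with entpd3, cyp2x6 with cyp2x7, and the clone-named zgc:136254 with si:ch211-251f6.7. The RAC1 row was not placed, since which rac1 gene it is was not known, so no pair with it could be counted. Its deposited value is -3.46, and that of CABZ01028771.1, which stands beside rac1b and is described below, is -3.14.

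The ratio of the neighbours to each other is given as a description, since both were chosen with the same wild-type pattern known and a steady ratio follows in part from that. Wild-type pools 1 to 4 had 0.632, 0.635, 0.584 and 0.736 expected counts of fam198a for each count of entpd3, a mean of 0.647 ± 0.0638 (SD, n = 4). Over the same pools the expected counts ranged from 80 to 249 for fam198a and from 137 to 394 for entpd3. In the mutants the counts were too low to fix it: fam198a had 11, 8, 11 and 3 expected counts, entpd3 8, 7, 9 and 10, and the ratio ranged from 0.300 to 1.38.

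**Figure D2:**
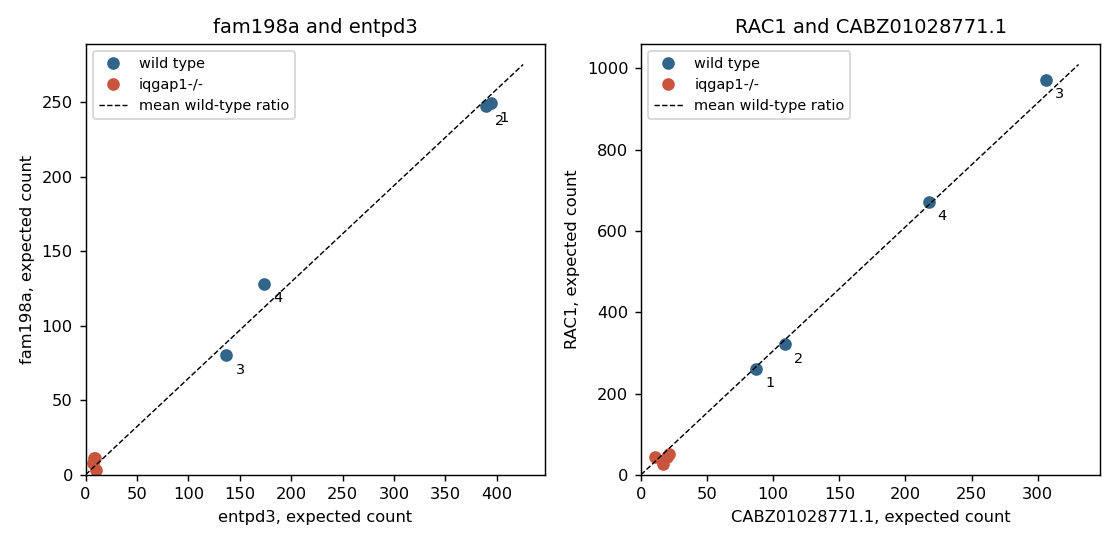
Expected counts of fam198a against entpd3 (left) and of RAC1 against CABZ01028771.1 (right), both axes linear, with 1 point per pool, wild-type pools numbered, and a dashed line at the mean wild-type ratio of 0.647 or 3.05. Wild-type pools lie along the line at different distances from 0, pools 1 and 2 far out for the left pair and pools 3 and 4 for the right pair.

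The remaining 3 members have named relatives in the genome, and their reads could not all be told apart. RSEM gives a gene a whole number when all its reads align to that gene alone, and a fraction when some are shared with another gene. With whole taken as within 0.005, all 8 expected counts were whole for kbtbd7, entpd3 and fam198a, and none of 8 was whole for eef1a1l2, RAC1 and gbgt1l3. The table thus split the members evenly, 3 with no sign of shared reads and 3 with shared reads in every library. By the looser rule of at least 1 value that was not whole, 3 of the 6 members stood beside 47.5% of the 613 listed genes with a wild-type mean of 50 or more. Among the 40 of those genes with a log2 fold change of -2 or lower it was 30 (75%). Nothing is read from the count of members. The RefSeq annotation holds 1 gene each named kbtbd7, entpd3 and gask1a, but 5 eef1a1 genes, 3 rac1 genes and 8 gbgt1 genes. That annotation is of another build than the deposited files, and which genes shared the reads was not tested. No other eef1a1, rac1 or gbgt1 gene is in the deposited table, so whether a relative rose by the reads that a member lost was not tested.

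The elongation factor gene eef1a1l2 was the most abundant of the 6 by normalized count, a level that is not corrected for transcript length. It had 918, 1595, 1792 and 1235 normalized counts in wild-type pools 1 to 4. The mutant pools had 102, 96.4, 125 and 99.4. The mutant pools were close to each other, while the wild-type pools varied by 1.95 times and did not divide into pools 1 and 2 against 3 and 4. The log2 fold change was -3.71 ± 0.22 (SE), or -3.69 without mutant pool 1. In the RefSeq order its neighbour is eef1a1l1, a gene of the same family, and the ID of the row (ENSDARG00000069951) is named EEF1A1 in the reference names, a symbol of another ID as well. The listed genes that could be placed within 10 of it were clone-named: si:ch211-255a21.2 (log2 fold change 1.46) did not pass the edgeR quasi-likelihood test (adjusted p = 0.366), and si:ch211-193k19.2 was removed by the count filter.

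The row named RAC1 had 244, 320, 825 and 618 normalized counts in wild-type pools 1 to 4. The mutant pools had 25.5, 52.8, 57.3 and 46.8. Here wild-type pools 3 and 4 were the high ones, opposite to entpd3 and fam198a, and mutant pool 1 was the lowest. The log2 fold change was -3.47 ± 0.41 (SE), and -3.26 without mutant pool 1. The table does not say which of the zebrafish rac1 genes the row is. The reference names give rac1a and rac1l to other IDs and RAC1 to the ID of this row (ENSDARG00000099506) and 1 more, while rac1b, the third gene of the annotation, is the name of no ID there.

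The listed gene most like RAC1 over the 8 pools was CABZ01028771.1, whose ID (ENSDARG00000101693) is STK19 in the reference names. Human STK19 encodes a winged helix protein of DNA repair. In the RefSeq order the gene whr1, with the synonym stk19, stands directly beside rac1b. CABZ01028771.1 had 81.1, 108, 260 and 201 normalized counts in wild-type pools 1 to 4 and 16.5, 22.1, 13.5 and 21.2 in the mutants. It thus followed the RAC1 row in which wild-type pools were high and fell with it in all mutant pools (log2 fold change -3.13). It was found by its likeness to RAC1 over the same pools, so the ratio between these rows is likewise a description. There were 3.00, 2.95, 3.17 and 3.08 RAC1 counts for each of its counts in wild-type pools 1 to 4, a mean of 3.05 ± 0.0974 (SD, n = 4). In the mutants the ratio ranged from 1.54 to 4.24, on 10.6 to 21.3 expected counts of CABZ01028771.1. None of the 8 values of CABZ01028771.1 was whole either. Of the other genes within 10 of rac1b, the endoplasmic reticulum stress sensor gene ern1 was listed (log2 fold change -1.48, edgeR quasi-likelihood test, adjusted p = 0.00067). Beside rac1a stood crym (0.61), which did not pass that test (adjusted p = 0.0981), and no listed gene could be placed within 10 of rac1l.

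The glycosyltransferase row gbgt1l3 had 249, 249, 191 and 233 normalized counts in wild-type pools 1 to 4. The mutant pools had 17.3, 38.3, 59.4 and 43.8. Its wild-type pools were the most even of the 6, with a highest over lowest ratio of 1.31, and its mutant pools varied by 3.43 times, with pool 1 the lowest. The log2 fold change was -2.56 ± 0.27 (SE), and -2.30 without mutant pool 1. The row's ID (ENSDARG00000091969) is named gbgt1l6 in the reference names, which give gbgt1l3 to another ID. The genes gbgt1l3 and gbgt1l6 are immediate neighbours in the RefSeq order, so the place in the genome is nearly the same under either name. The adjoining gene arap1a was listed and rose (log2 fold change 0.99; edgeR quasi-likelihood test, adjusted p = 0.00326).

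The wild-type pools divided in opposite ways for different members. Pools 1 and 2 lay above 3 and 4 for entpd3, by a gap of 2.29 times between the lower of the high pools and the higher of the low pools. The gap was 1.96 times for fam198a. Pools 3 and 4 lay above 1 and 2 for RAC1, by 1.93 times. For gbgt1l3 pools 1 and 2 were higher by 1.07 times, a gap that was lost in the values as deposited, before scaling. The pools overlapped for kbtbd7 and eef1a1l2. A separation in either direction was found in 51.2% of the 613 listed genes with a wild-type mean of 50 or more, 153 with pools 1 and 2 higher and 161 with pools 3 and 4 higher. A gap of 1.5 times or more, which 3 of the 6 members had, was found in 3.92% of them, 24 genes. The members were chosen with this pattern known, so the counts are given side by side and nothing is read from them.

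These 24 genes were not all low in the mutants: 11 were lower and 13 higher. Among the 40 genes at least 4-fold lower, 7 had such a gap, 4 with pools 1 and 2 higher and 3 with pools 3 and 4 higher. The 7 include entpd3, fam198a and RAC1, chosen with this pattern known, and CABZ01028771.1, found by its likeness to RAC1. Nothing is therefore read from this share. Of genes with a gene name, the largest gaps with pools 1 and 2 higher were those of entpd3, the cytochrome P450 gene cyp2x7 (2.21 times), ponzr4 (1.97), fam198a and the transglutaminase-like gene tgm1l4 (1.61). The largest with pools 3 and 4 higher were those of the selenium carrier gene selenop (2.20), RAC1, the Fos family gene fosab (1.62), sdr42e2 (1.61) and the collagen gene col28a2a (1.55). Unlike entpd3 and fam198a, ponzr4 and tgm1l4 were higher in the mutants, tgm1l4 with a log2 fold change of 2.43 and ponzr4 with 502 normalized counts on average against 233 in wild type. Whether the pools differ in parental haplotype or in the number of gene copies was not tested, since the table holds no sequence variants and the labels name no parents.

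**Figure D3:**
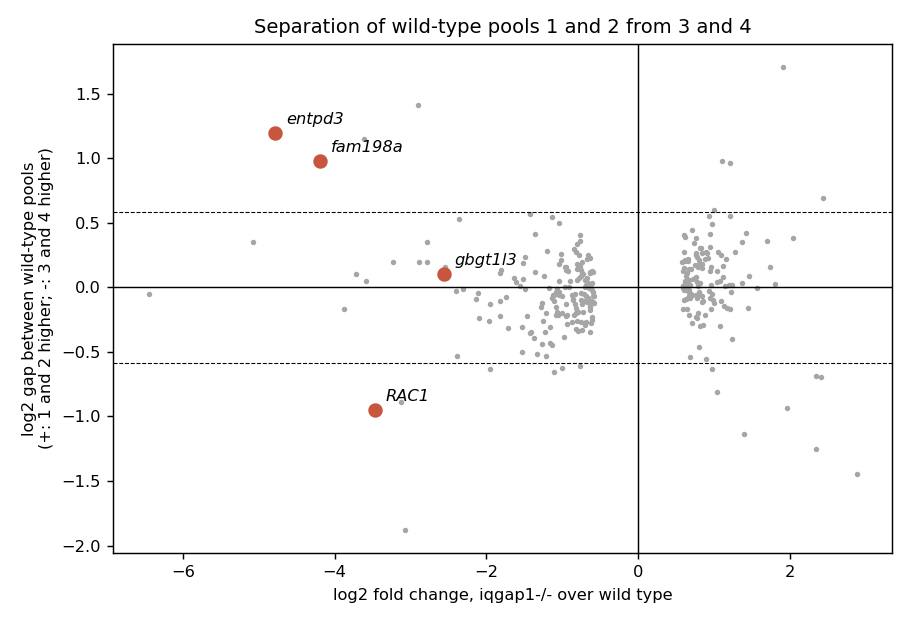
Log2 fold change of iqgap1-/- over wild type (horizontal axis) against the log2 gap between wild-type pools 1 and 2 and pools 3 and 4 (vertical axis; above 0, pools 1 and 2 higher; below 0, pools 3 and 4 higher) for listed genes with a wild-type mean of 50 or more whose pools separate. Dashed lines mark a gap of 1.5 times. The points of entpd3 and fam198a lie above the upper line at low fold changes, RAC1 lies below the lower line, and gbgt1l3 lies near 0.

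Likeness between genes was measured as the root mean square difference of log2(normalized count + 1) over the 8 pools, after each gene was centred on its own mean, among the 613 genes. It is dominated by the difference between the groups, on which the authors had selected every listed gene. The gene most like kbtbd7 was echdc1, an enzyme of ethylmalonyl-CoA breakdown, with a difference of 0.45. It had 56.8, 50.9, 64.5 and 59.0 normalized counts in wild-type pools 1 to 4 and 0, 1.04, 0 and 1.06 in the mutants, and all its values were whole. For both genes the mutant pools with no count were pools 1 and 3, at counts too low to tell the mutant pools apart. The genes next in likeness to kbtbd7 were much farther away, at 0.86 and 1.01.

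For entpd3 and fam198a each was the most like the other (0.60), the neighbouring gene in the genome. The third gene for fam198a was cyp2x7 (0.64), which had 322, 304, 137 and 107 normalized counts in wild-type pools 1 to 4 and 23.4, 22.9, 11.5 and 11.7 in the mutants. For RAC1 the gene most like it was CABZ01028771.1 (0.40), followed by eef1a1l2 (0.52). For eef1a1l2 and gbgt1l3 the most like was the same clone-named gene, FP236197.1 (0.50 and 0.31). It had 94.2, 116, 82.3 and 80.6 normalized counts in wild-type pools 1 to 4 and 5.36, 10.9, 15.7 and 9.49 in mutant pools 1 to 4. Mutant pool 1 was the lowest mutant pool for FP236197.1 as for gbgt1l3, though not for eef1a1l2.

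**Figure D4:**
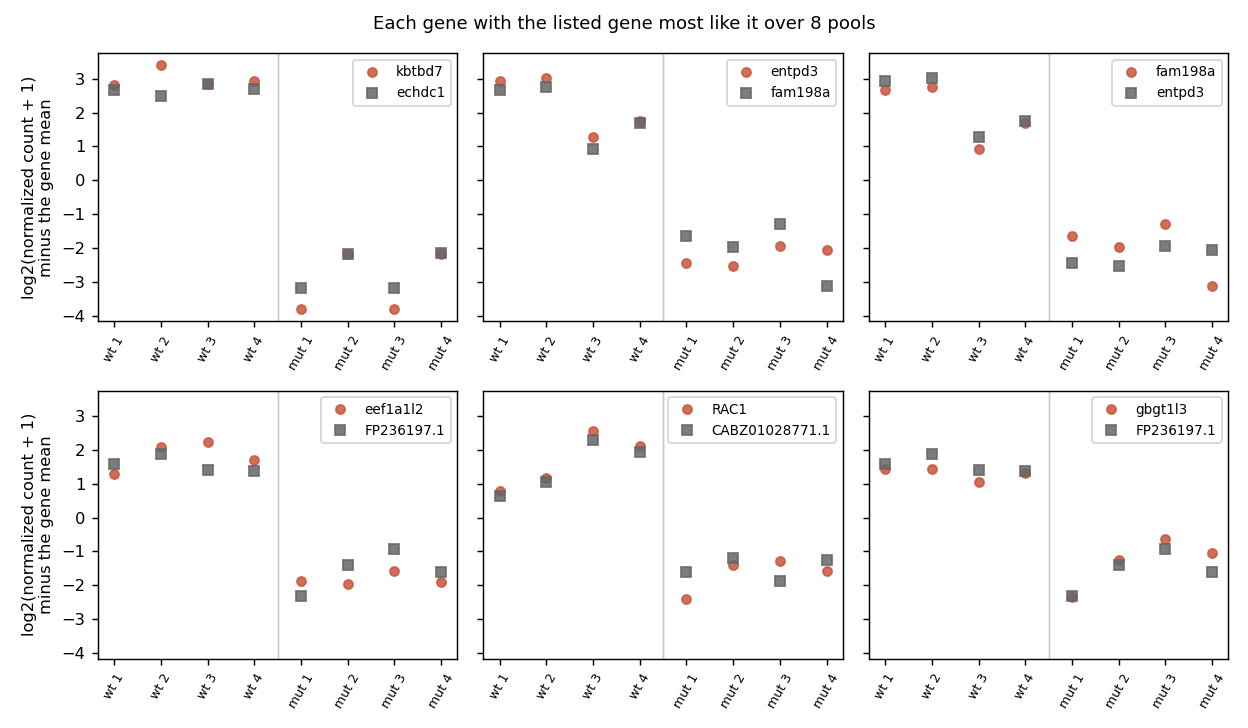
Log2(normalized count + 1) minus the mean of the gene (vertical axis) in the 4 wild-type (wt) and 4 iqgap1-/- (mut) pools for each of the 6 genes (round points) and the listed gene most like it (square points). The profiles of entpd3 with fam198a and of RAC1 with CABZ01028771.1 lie close to each other within the wild-type pools, and farther apart in most mutant pools. The genes echdc1 and kbtbd7 share the mutant pools with no count, at counts too low to tell the mutant pools apart.

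Other genes of the same families were few in the table. They were taken by symbol and tested with the edgeR quasi-likelihood test, where the median log2 fold change of all genes tested was 0.70. All of them had already passed the authors' own selection on the same libraries, which left 0.586 as the smallest log2 fold change in either direction. The median of a list cut in this way is no baseline for a family. The test here repeats the contrast of that selection, so a gene that did not pass it had still passed the authors' selection. Of 57 IDs with BTB-kelch or cullin 3 ligase symbols klhl33 was listed, with a deposited log2 fold change of 1.74, and it did not pass the count filter. No other translation elongation factor was listed, out of 20 IDs.

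Of 108 IDs with symbols of extracellular nucleotide enzymes and receptors, 5 were listed besides entpd3. The ATP-gated channel gene p2rx7 rose by 0.92 on the log2 scale (adjusted p = 0.00669), from a mean of 79.9 ± 7.07 normalized counts to 152 ± 24.8 (n = 4 each, SD), while p2rx4b (0.94) did not pass (adjusted p = 0.0704). The nucleotidase-like gene nt5c2l1, whose relatives act inside the cell, rose by 1.00 on the log2 scale. The other listed symbols, adam8b (-1.14, adjusted p = 0.00511) and adamts13 (0.62, adjusted p = 0.103), belong to metalloproteases and share no more than the first letters with adenosine deaminase genes. Of the 9 IDs of secretory pathway kinases fam20a rose by 0.97 on the log2 scale (adjusted p = 0.0078). Of 86 IDs of glycosyltransferases of blood group and related glycans, the fucosyltransferase gene fut9b rose by 0.62 (adjusted p = 0.0273), and b3gnt2a (0.99) did not pass (adjusted p = 0.0667). Of the listed genes in this paragraph adam8b was the one that fell, and it was not as low as any member.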

How the data were processed

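Whole-embryo RNA of 8 pools was sequenced after removal of ribosomal RNA, per the labels' protocols. Trimmomatic, STAR 2.7, RSEM and danRer11 appear in the submitters' processing notes; for the annotation, strand setting and comparison tool the sources used here give nothing. For 1293 genes the deposited table holds the authors' log2 fold change, the same as a linear ratio, and their p-values, raw and adjusted. The values deposited for each library are RSEM expected counts, each multiplied by 1 of 8 factors (0.978 to 1.03). The factor was not fixed for a library. The factors followed each other in the same cycle over the libraries, with a start that changed from gene to gene. They were divided out, which made all 10152 nonzero values multiples of 0.01, and counts were rounded for the fit. Size factors within a group came from ratios to the geometric mean over genes averaging at least 50 counts, and the scale between groups from the offset (-0.23, log2) that matches the deposited fold changes. With edgeR 4.0.16 (R 4.3.3; minimum count 10, minimum total 15) 1126 genes were tested and 167 removed, with Benjamini-Hochberg adjustment over the 26889 genes of the authors' adjustment (those outside the table at a p of 1) and a threshold of 0.05. The steps were tested on simulated data. DESeq2 1.42.0 and other scalings were alternatives. Members, gene lists and rules were chosen with earlier results of these data known. Named genes are the members, the 3 genes most like each, the 5 largest wild-type gaps in each direction, listed genes within 10 protein-coding genes of a member, and up to 4 called genes of each related list; other related genes, adjacent pairs, the lowest other genes and gsnb were named after their values were seen. One of the related lists is not reported here.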

Additional observations from a re-analysis of the deposited data

Results flagged for a closer look

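Wild-type pool 2 was the highest of the wild-type pools for kbtbd7, at 147 normalized counts where the others had 97.8 to 106, a gap large enough to stand apart by Dixon's test at the 95% level. Of 12 groups of 4 pools looked at for the 6 genes this was the 1 that stood apart, and chance marks about 1 group in 20.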

How the results depend on the processing

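All 6 genes stayed at least 4-fold lower under every alternative run, and the wild-type separation count was 4 with RLE or TMM scaling and 3 in the values as deposited. In the main run 7.9% of the 1126 genes tested were as low. A separation was found there in 51.2% of the 613 listed genes with a wild-type mean of 50 or more. Shares of all genes under the alternatives are not given, so nothing is read from these counts. Leaving out each library in turn gave log2 fold changes of -7.06 to -6.13 for kbtbd7, -5.03 to -4.52 for entpd3, -4.46 to -3.91 for fam198a, -3.86 to -3.56 for eef1a1l2, -3.70 to -3.12 for RAC1 and -2.80 to -2.30 for gbgt1l3, with 538 to 799 listed genes called in place of 752. Scaling over the listed genes shifted the log2 fold changes by a median of -0.45 (RLE) or -0.38 (TMM) over genes averaging at least 50 counts. For eef1a1l2 the values went to -4.17 and -4.09. The called genes went from 422 higher and 330 lower to 130 higher and 461 lower with RLE. With no count filter 829 genes were called and with DESeq2 911. Over 644 genes together, pools of the same number did not deviate together (correlations -0.252 to 0.127), which cannot settle pairing for single genes. With a replicate block 542 genes were called and entpd3 had -4.70, kbtbd7 -6.57 and RAC1 -3.36. The SE with the block was lower for RAC1 (0.22 for 0.41), entpd3 (0.37 for 0.47), fam198a (0.41 for 0.50) and eef1a1l2 (0.18 for 0.22). It was higher for kbtbd7 (0.44 for 0.43) and gbgt1l3 (0.29 for 0.27). Whether whole counts can be told from the values without undoing the factors was not run, since the factors were recovered. The depth of the libraries is not known from the listed genes, and the scale between groups rests on the deposited fold changes.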
